A study of Homo sapiens with 6 samples.

Results

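The transcript models of 5 synaptic adhesion genes were described: the neurexin genes NRXN2 and NRXN3 and the neuroligin genes NLGN1, NLGN2 and NLGN3. They were chosen by gene name in the merged transcript assembly of the series, and all of their models were kept, 18 of the 55083 models and 5 of the 25211 gene names in the assembly. Other genes of both families were not used here.

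The libraries came from EndoC-βH1, 1 human pancreatic beta cell line, and the study used a lentiviral short hairpin RNA (shRNA) aimed at the promoter of the insulin gene INS. In 3 libraries, named INS-KD, transduced cells received doxycycline (1 mg/mL) over 7 days to induce the hairpin. The other 3, named Negative Control, received no doxycycline, and the labels do not settle whether these cells carried the construct. All 6 libraries enter 1 merged assembly that holds exon positions and no abundance, so depth is unknown, and levels of the 5 genes, of beta cell markers and of INS in either group were not analysed here. Nothing below is a difference between the groups, no value has a replicate, and a RefSeq transcript listed in the assembly is no sign that the cells made it.

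Neurexins are membrane proteins of the presynaptic side, and neuroligins are their postsynaptic partners. The 2 bind each other across the cleft through their extracellular parts, and both end in a short intracellular tail that binds scaffold proteins. A neurexin gene makes a long form, alpha, and from a promoter inside the gene a short form, beta, and alternative exons at numbered splice sites set which partners are bound. In neuroligins, inserts at the splice sites A and B do the same. Beta cells also make both families, and the proteins have been studied there for their part in insulin granule docking and secretion.

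The short alternative segments are shown first because they are among the places where models of NRXN2, NRXN3 and NLGN3 differ. Each is read on the strand of its gene from GRCh37, with the optional part in capitals and 10 bases on either side in lower case. The 90-base cassette exon of the neurexins, splice site 4, lay at chr14:80158516-80158605 on the plus strand in NRXN3.
NRXN3, 90 bases: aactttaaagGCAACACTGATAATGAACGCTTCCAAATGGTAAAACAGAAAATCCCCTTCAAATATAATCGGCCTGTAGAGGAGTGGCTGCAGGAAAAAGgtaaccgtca
The 27-base cassette exon lay at chr11:64421168-64421194 on the minus strand in NRXN2 and chr14:79276661-79276687 in NRXN3.
NRXN2, 27 bases: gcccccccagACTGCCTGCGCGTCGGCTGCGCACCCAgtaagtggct
NRXN3, 27 bases: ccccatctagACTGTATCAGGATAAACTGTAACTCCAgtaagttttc
The 72-base cassette exon (chr11:64457877-64457948) was listed in NRXN2 alone among the 5 genes.
NRXN2, 72 bases: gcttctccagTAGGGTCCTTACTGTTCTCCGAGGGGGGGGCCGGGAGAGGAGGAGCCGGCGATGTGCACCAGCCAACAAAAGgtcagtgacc
In 2 further segments, at different exons of the 2 genes, an exon was lengthened by a later donor site. The 24-base exon of NRXN2 gained 21 bases (chr11:64444465-64444485), and the 79-base exon of NRXN3 gained 9 bases (chr14:80271534-80271542).
NRXN2, 21-base extension: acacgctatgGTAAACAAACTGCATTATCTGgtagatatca
NRXN3, 9-base extension: ccgagtacagGTAGGTCAGgtcagtctta
In both, the first 2 bases of the extension are GT, the letters of the earlier donor. The neuroligin inserts of site A are the 60-base cassette exons of NLGN3 at chrX:70368696-70368755 and chrX:70373327-70373386, and the 51-base exon of NLGN2 at chr17:7315476-7315526.
NLGN3, upstream 60 bases: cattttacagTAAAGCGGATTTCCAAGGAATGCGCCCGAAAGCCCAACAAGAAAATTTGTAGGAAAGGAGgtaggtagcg
NLGN3, downstream 60 bases: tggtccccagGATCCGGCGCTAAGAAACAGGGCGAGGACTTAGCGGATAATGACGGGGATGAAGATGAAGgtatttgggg
NLGN2, 51 bases: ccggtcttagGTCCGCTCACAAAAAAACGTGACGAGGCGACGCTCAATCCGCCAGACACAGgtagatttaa

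The 5 genes differed widely in size. NRXN3 spanned 1697918 bases of chromosome 14 on hg19 (78636716 to 80334633, plus strand), rank 11 of all 25211 gene names. NLGN1 spanned 884902 bases of chromosome 3 (173116238 to 174001139, plus strand), rank 81. NRXN2 was shorter, with 117015 bases of chromosome 11 (64373646 to 64490660, minus strand). NLGN3 took 26371 bases of chromosome X (70364681 to 70391051, plus strand) and NLGN2 took 11682 bases of chromosome 17 (7311502 to 7323183, plus strand). A span over 100000 bases was thus held by 3 of the 5, against 13.5% of all gene names, whose median span was 17349 bases. Exons made up 0.559% of the span in NLGN1, 0.847% in NRXN3, 6.32% in NRXN2, 15.1% in NLGN3 and 39.8% in NLGN2. No other gene name overlapped any of the 5 spans, and each gene was alone in its locus.

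**Figure D1:**
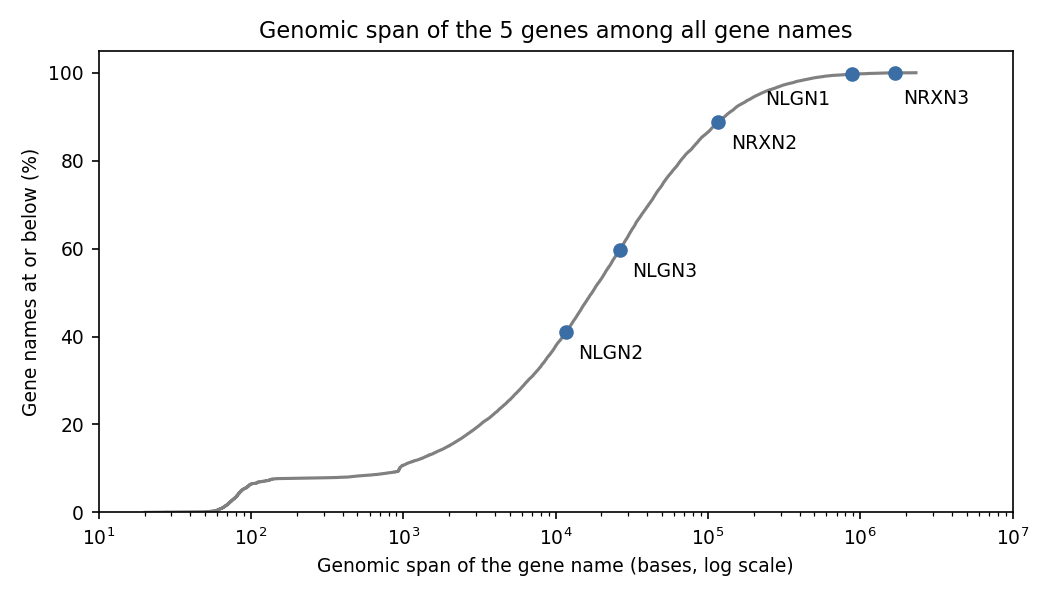
Cumulative share of the 25211 gene names (y axis, percent) by genomic span in bases (x axis, log scale), with the 5 genes as points. NRXN3 (1697918 bases) and NLGN1 (884902 bases) sit at the far right, NRXN2 (117015 bases) on the shoulder, and NLGN3 (26371 bases) and NLGN2 (11682 bases) in the middle of the range.

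The neuroligin genes NLGN1 and NLGN2 differed in size mainly by their introns. The NLGN1 model had 4947 spliced bases and the NLGN2 model 4646, in 7 exons each. The longest intron was 467482 bases in NLGN1, between its exons of 153 and 213 bases, and 3444 bases in NLGN2. In NRXN3 the longest intron was 479079 bases, and in NRXN2 it was 15177 bases. An intron over 100000 bases occurred in NRXN3 and NLGN1, 2 of the 5 genes, against 4.78% of all gene names. All 76 distinct introns of the 5 genes began with GT and ended with AG.

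NRXN2 had 3 models, all RefSeq transcripts, in 2 start site groups (tss_id, the assembly's label for models that share a start). The 2 long models, of 23 exons with 6623 spliced bases (NM_015080) and 20 exons with 6413 bases (NM_138732), began at base 64490660. The short model, of 7 exons and 3535 bases (NM_138734), began 79873 bases further into the gene, at base 64410787, and covered 37142 bases. Its own first exon of 777 bases lay inside an intron of the long models, 12766 bases in length, and from the following exon of 182 bases on it used exons of the long models. All 3 models ended at the same base.

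The 2 long NRXN2 models differed at 4 places. NM_015080 held the 72-base, 27-base and 90-base cassette exons and the 21-base extension, 210 bases in all, and NM_138732 held none of them. The short model held the 90-base exon. With 4 optional segments, 16 combinations are possible in a long model, and 2 were listed. The longest reading frames were 1712, 1642 and 666 residues. The long pair differed by 70 residues, the 24, 7, 9 and 30 residues that the segments encode. The short frame shared its last 577 residues with NM_015080 and had 89 of its own at the start, encoded mainly by the 777-base exon.

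NLGN3 had 3 models, all RefSeq transcripts from 1 start, that differed in the site A inserts shown above. NM_181303 (8 exons, 3985 spliced bases) held both 60-base exons, NM_018977 (7 exons, 3925 bases) the downstream one alone, and NM_001166660 (6 exons, 3865 bases) neither. The upstream exon alone, the remaining combination of 4, was not listed. The frames were 848, 828 and 808 residues, and differed only after residue 152, by 20 residues for each exon. NLGN3 binds neurexins at excitatory and inhibitory synapses.

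**Figure D2:**
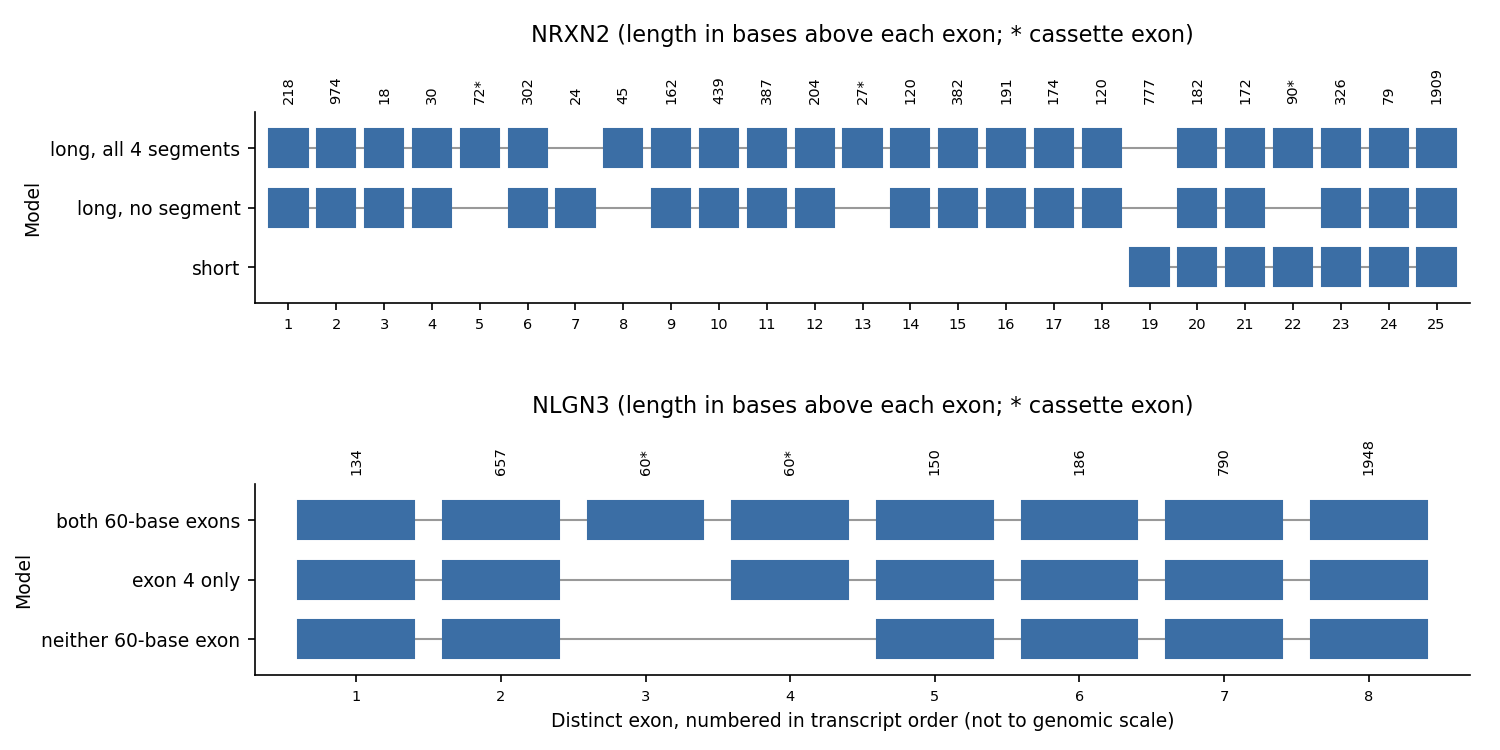
Exon content of the 3 NRXN2 models (top) and the 3 NLGN3 models (bottom). The x axis numbers the distinct exons in transcript order and is not to genomic scale, filled boxes are exons present, and exon lengths in bases stand above. NRXN2 exons 7 and 8 share their start and differ by the 21-base extension. The long NRXN2 models differ at the exons of 72, 27 and 90 bases and at this extension, and the NLGN3 models at the exons of 60 bases alone.

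NRXN3 had 10 models in 3 start site groups, 6 RefSeq transcripts and 4 joined models, a joined model being one whose chain of introns is absent from RefSeq (class j). It was the only gene of the 5 with a joined model, against 12.4% of all 21516 gene names with a multi-exon RefSeq transcript. The first start, at base 78636716, had 4 models of 19 to 21 exons and 11603 to 13005 spliced bases. The second, 233358 bases downstream at base 78870074, had 2 models of 17 and 19 exons. The third, a further 875608 bases downstream at base 79745682, had 4 models of 6 to 8 exons and 8578 to 9971 bases. It lay inside the longest intron of the other 6 models. The first and the third starts are those of the alpha and beta forms, and they stood 1108966 bases apart, 65.3% of the gene. The distance in NRXN2 was smaller by far but took a like share of its gene, 68.3%.

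**Figure D3:**
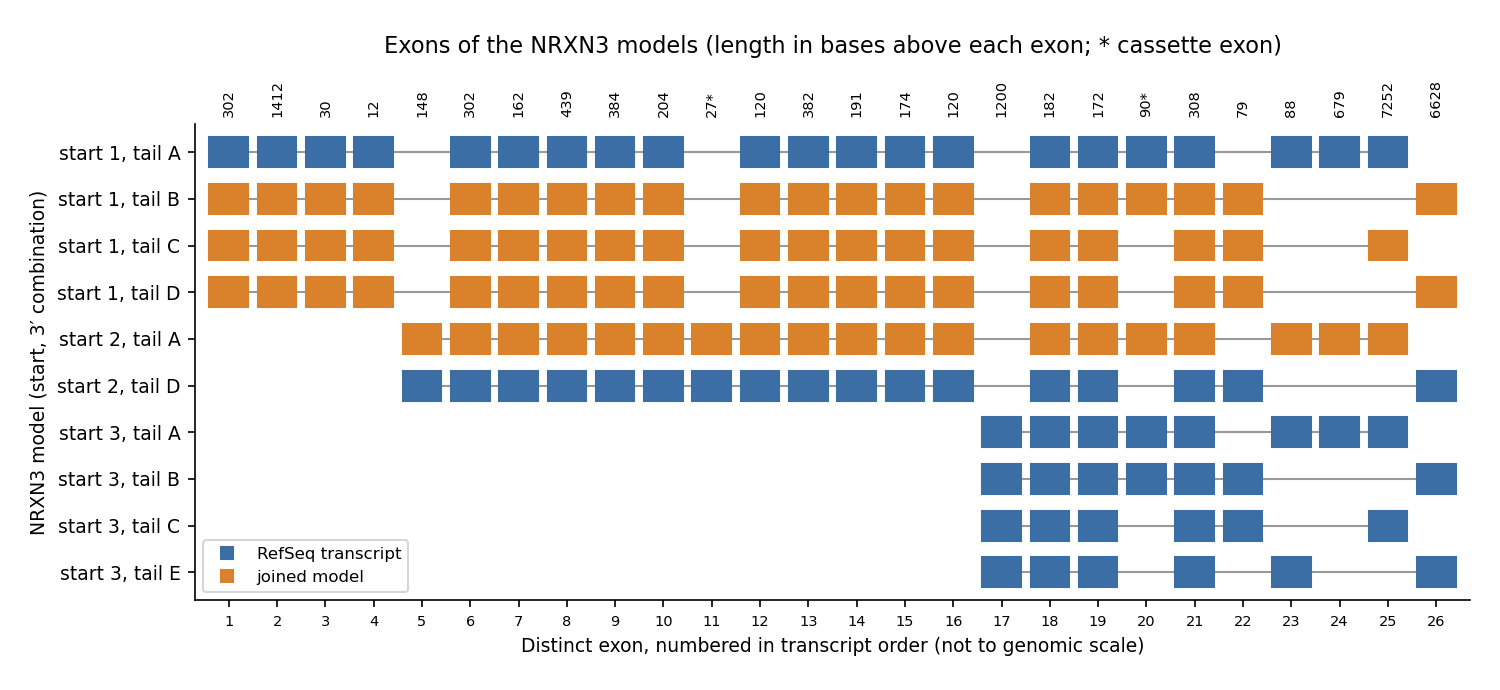
Exon content of the 10 NRXN3 models, by start site group (1 to 3) and 3′ combination (tail A to E). The x axis numbers the 26 distinct exons in transcript order and is not to genomic scale, blue boxes are exons of the 6 RefSeq transcripts, orange boxes those of the 4 joined models, and lengths in bases stand above. Exons 22 and 23 share their start, and exons 25 and 26 share their end. All models hold the exons of 182, 172 and 308 bases and differ before, between and after them.

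More than 1 start site group was listed for 2 of the 5 genes, NRXN2 and NRXN3, against 16.2% of all gene names. At least 3 groups, as in NRXN3, were listed for 4.96%. The starts differed in sequence. In the 300 bases around the start (250 before and 50 after), GC content was 71.0% at the short start of NRXN2. The ratio of observed to expected CG there was 0.920, from 26 CG. In NRXN3 the first start had 57.0% GC, 5 CG and a ratio of 0.206, and the second 51.7% GC, 6 CG and a ratio of 0.311. The third, short start had 64.3% GC, 29 CG and a ratio of 0.943. Over 30149 start windows of the assembly the medians were 59.3% GC, 16 CG and a ratio of 0.637, and 97.2% of windows held at least 1 CG. The last 100 bases before 4 neurexin starts are given with CG in capitals.
NRXN2 short start, chr11:64410788-64410887, minus strand: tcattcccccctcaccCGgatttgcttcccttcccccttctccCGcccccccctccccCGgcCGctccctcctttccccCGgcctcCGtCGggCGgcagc
NRXN3 first start, chr14:78636616-78636715, plus strand: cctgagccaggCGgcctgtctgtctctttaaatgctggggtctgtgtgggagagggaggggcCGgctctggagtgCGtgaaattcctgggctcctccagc
NRXN3 second start, chr14:78869974-78870073, plus strand: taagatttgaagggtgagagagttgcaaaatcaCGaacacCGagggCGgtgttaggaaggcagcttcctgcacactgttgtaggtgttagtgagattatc
NRXN3 short start, chr14:79745582-79745681, plus strand: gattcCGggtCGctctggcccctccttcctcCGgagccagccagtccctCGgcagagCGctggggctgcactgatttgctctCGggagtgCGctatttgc
With limits of 50% GC and a ratio of 0.6, 4 of 8 windows passed, against 50.0% of all windows, among them the short NRXN2 start, the third NRXN3 start and the NLGN3 start (62.7% GC, ratio 0.687). The NLGN1 start (49.3% GC, ratio 0.499) and the NLGN2 start (66.7% GC, ratio 0.301) did not. The letters TATAAA, sought on both strands, were in 0 of the 8 windows and in 11.0% of all windows.

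The 3′ part of NRXN3, from the 182-base exon to the common end at base 80334633, occurred in 5 combinations, called tails A to E here. They differ in the 90-base cassette exon, in the 9-base extension that turns an exon of 79 bases into 88, in an exon of 679 bases and in the start of the last exon, which lay at base 80327382 (7252 bases) or at base 80328006 (6628 bases). Tail A held the 90-base exon, the extension, the 679-base exon and the longer last exon. Tail B held the 90-base exon alone, and tail C the longer last exon alone. Tail D held none of the 4, and tail E the 9-base extension alone. With 4 choices, 16 combinations are possible and 5 were listed. The 2 acceptors of the last exon are shown with their AG in capitals, 20 bases before and 10 after the cut. Far and near refer to the distance from the common end of the gene, so the far acceptor is the one closer to the preceding exon.
NRXN3 far acceptor, chr14:80327362-80327391: ctttttcttttccatcccAGgaggtgaatt
NRXN3 near acceptor, chr14:80327986-80328015: gttccgtaatgtgcccacAGcaaaccccac

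The joined models placed listed tails on other starts. RefSeq gave tail A on the first start (NR_073547), tail D on the second (NM_004796) and tails A, B, C and E on the third (NR_073546, NM_001105250, NM_001272020 and NM_138970). The 4 joined models added tails B, C and D to the first start and tail A to the second. Of the 15 pairs of start and tail, 10 were thereby listed and 5 were not. Every intron of the 4 joined models was present in a RefSeq transcript of the gene, and so were their starts and end. Without abundance, how far reads backed these models is unknown. The joined model with tail B, for example, followed NR_073547 for its first 18 of 19 introns and NM_001105250 for its last 5, with 4 introns common to both runs. None of the 4 joined chains was in GENCODE release 44, nor was that of NR_073547, whereas those of the other 13 RefSeq transcripts of the 5 genes were. Each intron of all 18 models was in GENCODE. The pairing of the first start with tail B was also in GENCODE, in 1 transcript of 22 exons, among them an exon of 18 bases that the assembly does not hold.

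**Figure D4:**
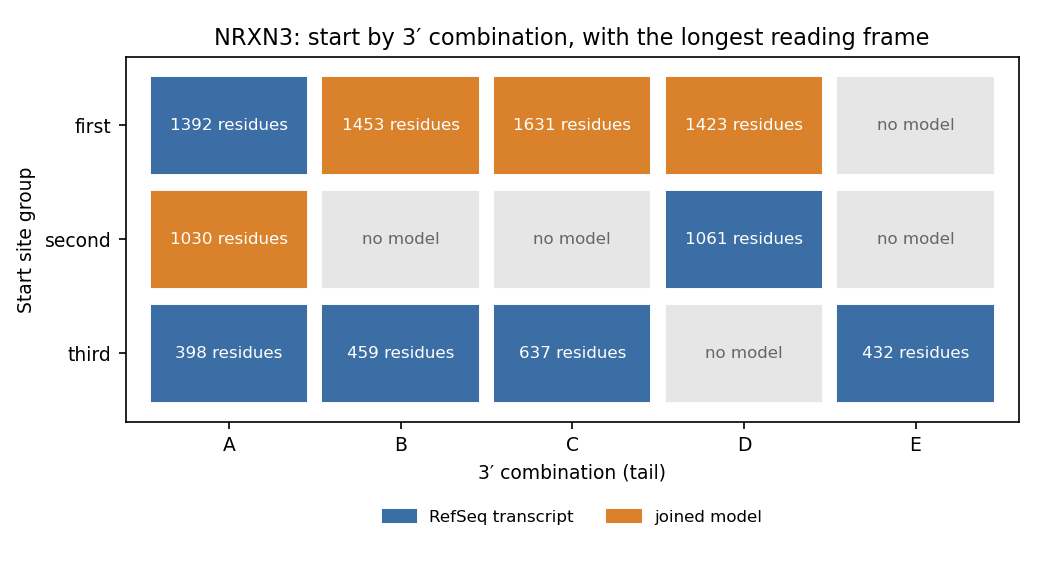
The 15 pairs of NRXN3 start site group (y axis) and 3′ combination (x axis), with the length of the longest reading frame in residues. Blue cells are RefSeq transcripts, orange cells joined models, and grey cells have no model. Frames run from 398 residues at the third start to 1631 at the first, and joined models fill 3 cells of the first start and 1 of the second.

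The tails set how the predicted NRXN3 proteins end. In tails B to E the frame stopped at base 80328305 in the last exon, and these frames shared their last 100 residues or more. In tail A the frame stopped earlier, at base 80319989, 107 bases into the 679-base exon. That exon is shown from 10 bases before its start, in intron, to this stop, with the stop codon in capitals.
NRXN3 tail A stop, chr14:80319882-80319991 after 10 intron bases: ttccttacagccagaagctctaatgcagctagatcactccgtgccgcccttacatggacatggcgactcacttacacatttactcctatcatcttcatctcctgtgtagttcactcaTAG
On the third start, the tail A frame shared 359 residues with the tail B frame and then had 39 of its own, where tail B had 100. The longer last exon in tail C adds 624 bases, which encode 208 residues. The frames on the first start were 1392 (tail A), 1453 (B), 1631 (C) and 1423 (D) residues, so the longest was that of a joined model. On the second start they were 1030 (A) and 1061 (D), and on the third 398 (A), 459 (B), 637 (C) and 432 (E). In the 3 models with tail A the stop lay 569 bases before the last junction, a position that in general can mark an RNA for nonsense-mediated decay.

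A hydrophobic stretch near the end of the frame, as a membrane-spanning segment would give, was sought as the highest mean Kyte-Doolittle hydropathy of 21 residues in windows starting in the last 200. With a threshold of 1.6, it was present in 15 of the 18 frames. It reached 2.60 in the 3 NRXN2 frames and in the 7 NRXN3 frames with tails B to E, with 55 and 54 residues after it. In the 3 NRXN3 frames with tail A the highest window was 1.15. The neuroligin frames reached 2.12 or 2.13, with 127 residues after the window in NLGN1, 138 in NLGN2 and 120 in NLGN3. At the other end, in windows starting within the first 60 residues, NRXN2 gave 1.48 in both long models and 1.88 in the short one. The first NRXN3 start gave 2.10, the third 1.27 and the second 0.30. On the second start the frame began in the 162-base exon, at base 79117568, so the exons before it held no part of it. Compared with the first start with the same tail D, it shared the last 675 of its 1061 residues, and it differs before that by the 27-base exon, which the models of the first start skip.

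**Figure D5:**
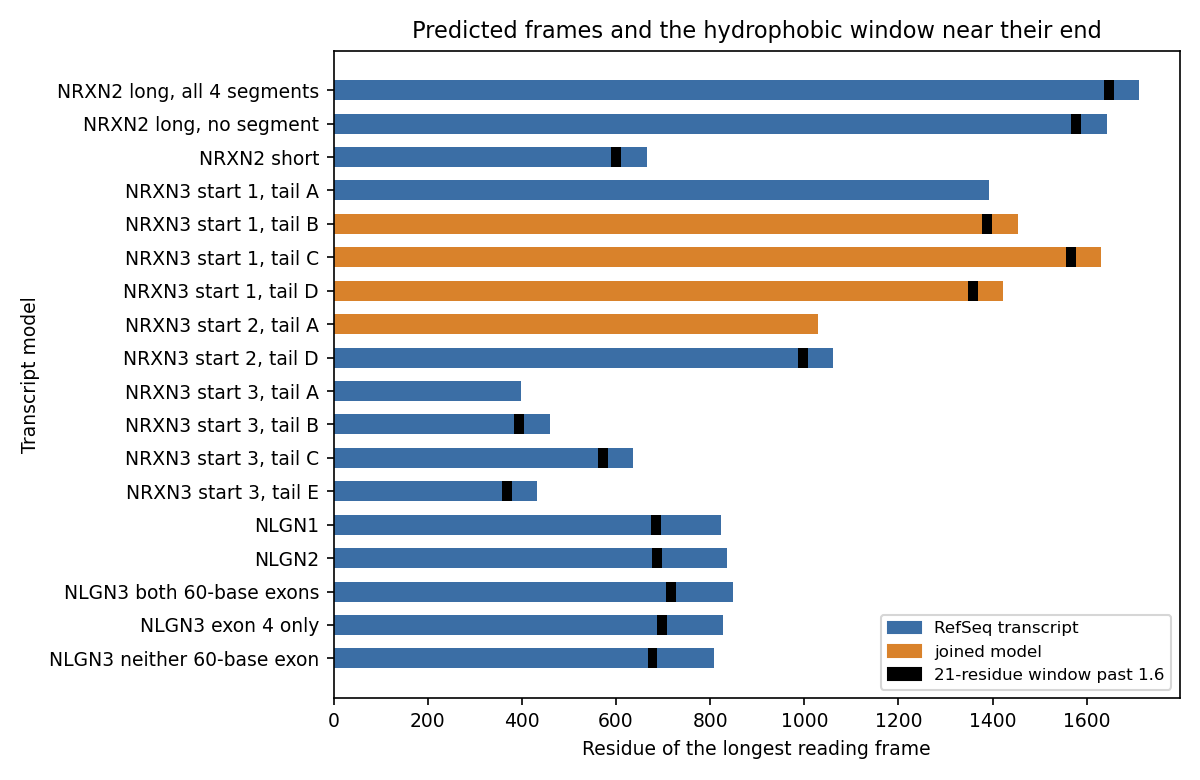
Longest reading frame of the 18 models in residues (x axis, from 0), blue for RefSeq transcripts and orange for joined models, with the 21-residue window past a mean hydropathy of 1.6 near the end in black. The window is present in 15 frames and missing in the 3 NRXN3 frames with tail A.

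Across the 5 genes 7 cassette exons were found, that is, internal exons skipped in another model by an intron between the same flanking splice sites: 3 in NRXN2, 2 in NRXN3 and 2 in NLGN3. A cassette exon was present in 3 of the 5 genes, against 25.3% of gene names with at least 3 exons, and at least 2 in the same 3, against 10.6%. NLGN1 and NLGN2 had 1 model each, so that none could be found there. All 7 had a length divisible by 3, against 54.3% of 9008 cassette exons in the assembly, so skipping them leaves the frame as it is. Among all distinct internal exons of the 5 genes, 36 of 59 (61.0%) had such a length, against 40.3% in the assembly. All 7 also began after the first base of a codon. The 679-base exon of NRXN3 was not among the 7, because no intron joined the same flanking splice sites. It was present in 3 of 10 models, and its length is not divisible by 3. Of the same 59 exons, 7 (11.9%) had 30 bases or fewer, against 1.24% of all internal exons. These lay in the neurexins, with exons of 18, 30, 24 and 27 bases in NRXN2 and of 30, 12 and 27 bases in NRXN3. Members of a family share ancestry, so the exons are not independent of each other.

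NRXN2 and NRXN3 shared much of their exon plan. Of the 23 exons of NM_015080 and the 21 of NR_073547, 13 had the same length in the same order: 30, 302, 162, 439, 204, 120, 382, 191, 174, 120, 182, 172 and 90 bases. Some of their neighbours differed by whole codons, as 387 against 384 bases and 326 against 308 bases. Exons of 18, 72, 45 and 27 bases in this NRXN2 model had none of that length in the NRXN3 model. The same held for exons of 12 and 679 bases in the NRXN3 model. Without gaps, the exon of 162 bases was identical at 81.5% of bases, the exon of 204 bases at 79.9% and the exon of 302 bases at 76.2%. The exons of 439 and 191 bases were lower, at 64.5% and 64.9%. The cassette exon of 27 bases was identical at 13 of 27 bases (48.1%), and the exon of 30 bases at 15 of 30 (50.0%). The exons beside the 27-base exon, of 204 and 120 bases, stood at 79.9% and 71.7%. Those of 172 and 182 bases, further downstream, stood at 73.3% and 72.0%. The 27-base cassette exon was thus equal in length and phase in the 2 genes but was identical at fewer than 1 in 2 bases. In residues, the 27-base exon was identical at 3 of 8 and the exon of 30 bases at 2 of 9.

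The neuroligin genes shared a plan with other cuts. NLGN1, which is found at excitatory synapses, and NLGN3 both had an exon of 790 bases, identical at 71.5% of bases. NLGN2, which is found at inhibitory synapses, had in its place exons of 193 and 597 bases, 790 in sum, parted by an intron of 362 bases. Joined, they were identical to the NLGN3 exon at 76.2% and to the NLGN1 exon at 66.8% of bases. NLGN2 and NLGN3 both had an exon of 186 bases, identical at 75.8%. The corresponding exon of NLGN1 had 213 bases, of which the first 186 aligned with NLGN3 without a gap (71.5% identical) and the last 27 had no counterpart. These 27 bases (chr3:173993291-173993317), the insert at site B, were part of the only NLGN1 model, while GENCODE lists the exon with 213 bases in 5 transcripts, with 199 bases in 1 and with 186 bases in 2.
NLGN1, 27-base insert: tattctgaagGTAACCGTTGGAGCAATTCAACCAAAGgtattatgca
As in the neurexin extensions, the capitals begin with GT, the earlier donor.

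The assembly listed no site A insert for NLGN1, but GENCODE has 2 cassette exons of 60 bases there, at chr3:173323324-173323383 in 2 of its 11 transcripts and at chr3:173518083-173518142 in 1.
NLGN1, upstream 60 bases: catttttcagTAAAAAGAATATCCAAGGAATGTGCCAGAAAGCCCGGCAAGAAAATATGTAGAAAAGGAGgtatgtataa
NLGN1, downstream 60 bases: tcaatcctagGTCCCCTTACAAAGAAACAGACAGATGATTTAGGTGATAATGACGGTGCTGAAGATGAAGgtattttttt
The upstream exon was identical to the upstream NLGN3 exon at 50 of 60 bases (83.3%) and in 18 of 19 residues, and to the downstream NLGN3 exon at 18 of 60. The downstream exon was identical to the downstream NLGN3 exon at 44 of 60 bases (73.3%) and in 12 of 19 residues. To the upstream NLGN3 exon it was identical at 16 of 60 bases (26.7%). The 2 NLGN3 exons were identical to each other at 19 of 60 bases (31.7%). The inserts were therefore more alike between the genes, position by position, than within NLGN3. The frames of NLGN1 (823 residues) and NLGN2 (835 residues) were identical to each other at 67.7% of aligned residues. NLGN1 and NLGN3 were identical at 72.4%, and NLGN2 and the longest NLGN3 frame at 67.4%.

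The assembly's coding groups (p_id) followed the RefSeq accessions. The 12 models with a protein-coding accession had 12 different groups, 3 in NRXN2, 4 in NRXN3, 1 each in NLGN1 and NLGN2 and 3 in NLGN3. No group was held by more than 1 model, against 9.28% of all 32906 groups. The 2 NRXN3 transcripts with a non-coding accession, both with tail A, and the 4 joined models had none, as had all 5237 joined models of the assembly. The longest frames nevertheless gave 18 different proteins for the 18 models. In the 13 models whose chain is in GENCODE, the frame had the start and stop of the GENCODE coding sequence, and 1 of these was the tail A transcript of the third start (NR_073546), which GENCODE calls protein-coding.

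The 3 gene lists that follow were drawn up here, and the role of each name was not checked. In that of binding partners of either family, LPHN1 and LPHN3 also stood under the newer symbols ADGRL1 and ADGRL3. Of the 47 names in this list, 45 were in the assembly. A cassette exon was present in 10 of 30 with at least 3 exons, a joined model in 4 of 45 and more than 1 start site group in 7 of 45, where the shares over all gene names were 25.3%, 12.4% and 16.2%. The last 2 counts lay near or below those shares. Most cassette exons were listed for DAG1, the dystroglycan gene (7 in 13 models), and the receptor phosphatase genes PTPRD (6 in 11) and PTPRS (3 in 5). Of 38 intracellular scaffolds, 18 had a cassette exon, 11 a joined model and 15 more than 1 start, beside the same shares over all gene names (25.3%, 12.4% and 16.2%), led by the membrane skeleton linker genes EPB41 (6 cassette exons), EPB41L1 (5) and EPB41L3 (4). The third list held 24 splicing regulators and proteases taken to act on neurexins or neuroligins. Of these, 8 had a cassette exon, 8 a joined model and 7 more than 1 start (25.3%, 12.4% and 16.2% over all gene names). Most cassette exons were listed for the splicing factor genes MBNL1 (6), RBFOX1 (2) and PTBP1 (2). Median spans were 28564, 140268.5 and 143916.5 bases in the 3 lists and 17349 bases over all gene names.

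Some gene names resembled the 5 in span, start groups and cassette exons combined, by distance between percentiles over all gene names. Nearest to NRXN3 were RBFOX1 (1694209 bases, 3 start groups, 2 cassette exons), RIMS2 (753681 bases) and SOX2-OT (685546 bases), the last 2 with the same numbers of both. Nearest to NRXN2 were PROM1, PICALM and C14orf159, each with 2 start groups and 3 cassette exons over 111384 to 115775 bases. Nearest to NLGN1 were AGBL1, CNTNAP5 and NCKAP5, each with 1 start group and no cassette exon over 887042 to 896660 bases. For NLGN2 they were HEY2, VASN and TEPP, and for NLGN3 CKLF-CMTM1, GRAMD1A and CENPN.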

How the data were processed

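The file analysed was 1 merged transcript assembly of the whole series. Its deposited values are the coordinates of exons, with text tags of the kind that Cufflinks and its merging tool write. The submitters' processing notes name TopHat2, Cufflinks and the build hg19, and the sources used here give neither versions nor settings. All 555595 lines are exons and 0 has a score.

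Models were rebuilt in Python 3.11.15 with pysam 0.24.0 and biopython 1.88. Sequences and frames (longest ATG to stop) were read from GRCh37, and intron chains were looked up in GENCODE release 44, lifted to the same build. Proteins were aligned with biopython's blastp scoring. The finders of cassette exons and frames were tested on simulated models. The 5 genes and the 3 gene lists were chosen with earlier results of these data known. Named genes were the 5, the 3 of each list with the most cassette exons and the 3 nearest to each of the 5. The alternatives used other definitions of skipping, starts, frames and gene sets. No expression test was possible without abundance. A few sequences and the values that rest on them are not reported here.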

Additional observations from a re-analysis of the deposited data

How the results depend on the processing

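No paired analysis was possible because the 6 libraries have no values of their own in the file, and for the same reason no replicate could be left out. The counts over the 5 genes stayed within 1.5 times under the alternatives run: 7 cassette exons became 8 when any intron of another model counted as skipping (the 679-base exon of NRXN3), 7 with RefSeq transcripts alone and 6 within start site groups (without the 27-base exon of NRXN3). The 8 start site groups stayed 8 in each of 3 settings, and the 4 joined models stayed 4 in both. The 18 predicted proteins became 17 with frames begun at the start of the nearest RefSeq transcript. The joined NRXN3 model of the second start lacks that position, so no frame was read for it. With RefSeq transcripts alone there were 14. The shares over all gene names depended on which were counted. With at least 2 models, 42.2% had more than 1 start site group and 54.3% a cassette exon, and with at least 2 RefSeq transcripts 27.5% had a joined model. On chromosomes 1 to 22, X and Y, 15.4% had more than 1 start site group. With any intron counted as skipping, 50.6% of cassette exons had a length divisible by 3. Depth is unknown and limits every statement on expression.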

Other observations

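GENCODE lists short cassette exons in NRXN3 that the assembly does not hold, of 18 bases (chr14:78744988-78745005, in 4 of 19 transcripts), 24 bases (chr14:79115611-79115634, in 1) and 27 bases (chr14:79439226-79439252, in 1). The NRXN3 exon of 12 bases, present in all 4 models of the first start, is skipped in 3 GENCODE transcripts, and the NRXN2 exon of 30 bases, present in both long models, in 1. The 51-base exon of NLGN2 is skipped in 1 of 4 GENCODE transcripts. In all, 25 exons of the 5 genes were cassette exons in GENCODE, 7 of them also in the assembly.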
